A study of Mus musculus with 2 samples.

Results

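The 42 genes described here mark phases of the cell division cycle. They were the rows of both count tables whose gene name was on a fixed list, and all 42 were found among the 34400 gene identifiers of the series. Of them, 16 were S-phase members, 23 were G2/M members, and Stmn1, Cks1b and Cks2 were assigned to no phase. Their UMI counts were compared in 5 groups of cells gated by marker UMIs: tumour, decorin-high, macrophage, CD8 T and NK cells.

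The study grew orthotopic colon tumours in mice from CT26, a carcinoma cell line of mouse colon, placed at the cecal junction. Once tumours measured 50 to 100 mm3, mice were given an antibody against SLC7A11 or control IgG, each at 10 mg/kg every 2 days. SLC7A11 is the light chain of the cystine-glutamate exchanger. The strain, sex and age of the mice, the number of animals behind each library and the time of collection are not given in the sources used here, and the design text speaks of both cecal injection and subcutaneous growth.

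Each group had 1 library of dissociated tumour, read with a 3′ single-cell kit in which each UMI marks 1 captured RNA molecule. The antibody library kept 10897 cells with a median of 7201 UMIs, and the control library kept 12326 cells with a median of 7052 UMIs. Both libraries shared 31 cell barcodes among the kept cells. The labels name goblet cells, yet goblet markers summed to 1.09 CPM (counts per 1000000 UMIs) in the antibody library and 1.87 CPM in the control library. With 1 library per group no difference between treatments could be tested, so the intervals below are exact 95% intervals of counting error alone and no p-value is given.

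Before a cell divides it copies its DNA in S phase and separates the copies in mitosis, and many genes are transcribed mainly ahead of the step they serve. S-phase genes encode the MCM helicase that opens DNA, the factors that load and drive it, and enzymes that supply nucleotides. G2/M genes encode the cyclin B kinase, the spindle and kinetochore machinery, and the anaphase-promoting complex that ends mitosis. Many S-phase promoters carry E2F sites, and many G2/M promoters carry a CHR element beside CCAAT boxes.

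RefSeq promoter windows (build GRCm38.p6, 250 bases before to 50 after the start of transcription, 300 bases in all) were matched for 35 of the 42 members. The letters searched on both strands were TTTGAA or TTCGAA for CHR, TTT followed by GG, CC, CG or GC and then CGC for E2F, and CCAAT; overlapping matches were each counted. A CHR match lay in 16 of 19 G2/M members (84.2%), in 3 of 14 S members (21.4%) and in 21.7% of all 27025 genes with a window. An E2F match lay in 6 of 14 S members (42.9%), in 1 of 19 G2/M members (5.26%) and in 2.60% of all genes. CCAAT was found in 16 of 19 G2/M members, in 11 of 14 S members (78.6%) and in 41.1% of all genes. These matches describe letters in a window, not sites in use.

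The windows below belong to members on which the comparison of libraries turned: Cdc20, Cenpa, Mcm6 and Ung were higher in the antibody library in each gate where they had enough counts, Ccnb2 was higher in 3 of 4 gates, and Mcm3 was lower in all 5 by total UMIs and in 4 by the median of gene ratios. Capitals mark the motif matches, and each window is written 5′ to 3′ on the strand of its gene.
Cdc20 (chr4:118437294-118437593, minus strand): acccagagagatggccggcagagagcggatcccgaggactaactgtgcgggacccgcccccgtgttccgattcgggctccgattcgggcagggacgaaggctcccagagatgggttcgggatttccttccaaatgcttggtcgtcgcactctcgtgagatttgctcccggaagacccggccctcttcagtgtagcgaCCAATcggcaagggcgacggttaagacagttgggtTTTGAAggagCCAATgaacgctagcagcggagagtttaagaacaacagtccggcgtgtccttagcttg
Cenpa (chr5:30666636-30666935, plus strand): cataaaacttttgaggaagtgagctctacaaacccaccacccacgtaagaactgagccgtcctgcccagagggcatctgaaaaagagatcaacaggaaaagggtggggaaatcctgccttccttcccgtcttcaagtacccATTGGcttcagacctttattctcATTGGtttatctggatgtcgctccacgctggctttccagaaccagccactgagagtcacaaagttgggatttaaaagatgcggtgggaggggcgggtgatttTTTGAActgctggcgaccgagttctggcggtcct
Ccnb2 (chr9:70421505-70421804, minus strand): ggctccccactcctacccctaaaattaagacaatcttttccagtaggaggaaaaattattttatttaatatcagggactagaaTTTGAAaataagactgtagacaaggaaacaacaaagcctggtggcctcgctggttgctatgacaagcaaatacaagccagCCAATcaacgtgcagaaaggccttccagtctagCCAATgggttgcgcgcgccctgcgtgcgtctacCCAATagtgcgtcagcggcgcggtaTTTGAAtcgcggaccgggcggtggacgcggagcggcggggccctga
Mcm3 (chr1:20820263-20820562, minus strand): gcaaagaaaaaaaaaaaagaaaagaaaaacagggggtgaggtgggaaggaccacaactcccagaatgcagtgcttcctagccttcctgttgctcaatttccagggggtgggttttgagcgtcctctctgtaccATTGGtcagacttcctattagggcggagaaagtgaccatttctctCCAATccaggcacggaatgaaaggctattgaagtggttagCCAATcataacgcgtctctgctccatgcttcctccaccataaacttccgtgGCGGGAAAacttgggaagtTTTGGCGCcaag
Mcm6 (chr1:128359656-128359955, minus strand): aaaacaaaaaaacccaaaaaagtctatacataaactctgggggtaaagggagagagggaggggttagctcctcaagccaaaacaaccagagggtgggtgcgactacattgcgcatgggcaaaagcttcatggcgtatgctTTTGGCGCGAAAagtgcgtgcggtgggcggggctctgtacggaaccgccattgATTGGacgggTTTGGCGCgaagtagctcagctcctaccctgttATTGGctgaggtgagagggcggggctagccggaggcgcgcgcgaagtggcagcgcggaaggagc
Ung (chr5:114130185-114130484, plus strand): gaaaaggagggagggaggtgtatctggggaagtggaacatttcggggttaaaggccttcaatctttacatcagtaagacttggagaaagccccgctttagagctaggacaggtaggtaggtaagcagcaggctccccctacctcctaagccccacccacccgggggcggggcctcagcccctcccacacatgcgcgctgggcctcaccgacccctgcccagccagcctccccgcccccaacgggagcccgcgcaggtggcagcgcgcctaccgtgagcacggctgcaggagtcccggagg
The Cdc20, Cenpa and Ccnb2 windows held CHR and CCAAT matches, and the Mcm3 and Mcm6 windows held E2F and CCAAT matches. The Ung window held none of the letters searched. Mcm3 and Mcm6 thus carried the same kinds of match although their ratios between the libraries had opposite signs.

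The gates used no cell cycle gene. Tumour cells were taken as cells with at least 1 keratin UMI (Krt8 or Krt18), no Ptprc, T cell or Y-linked UMI, and under 8 decorin UMIs (Dcn) per 10000; 811 cells passed in the antibody library and 1455 in the control library. Decorin-high cells had at least 10 Dcn UMIs and 20 per 10000, and the same host markers at 0. Of the fibroblast markers Col1a1, Col3a1, Pdgfra and Pdgfrb they had under 20 UMIs in sum. This gate and the tumour gate also required under 10 C1q, under 5 S100a8 and S100a9, and under 2 NK receptor UMIs. Decorin-high cells numbered 1279 in the antibody library and 2196 in the control library. They are named by this rule only, because keratin UMIs were present in 11.0% of antibody and 13.6% of control cells. Their fibroblast markers, though capped by the gate, still summed to 524 and 805 CPM. The macrophage gate (at least 20 C1q UMIs) held 541 antibody and 436 control cells, the CD8 T gate (CD3 and CD8 UMIs without Cd4) 506 and 85, and the NK gate (at least 2 NK receptor UMIs without CD3) 183 and 61. Ptprc, the pan-leukocyte marker, was seen in 87.6% and 78.9% of macrophage cells, 85.4% and 81.2% of CD8 T cells, and 86.3% and 95.1% of NK cells. Cells between the decorin cuts, 8 to 20 Dcn UMIs per 10000, numbered 1033 in the antibody and 2194 in the control library and entered neither gate.

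Cycling cells were most frequent in the tumour gate by G2/M members. A cell was called G2/M or S when at least 3 of 1000 UMIs, drawn at random from it, came from the members of that phase, which puts cells of all depths on one scale. The G2/M call took 40.3% of tumour cells in the antibody library (36.9 to 43.8%) and 40.8% in the control library (38.3 to 43.4%). In the decorin-high gate it took 9.07% (7.55 to 10.8%) in the antibody library and 7.06% (6.02 to 8.21%) in the control library. Tumour cells were therefore called G2/M several times as often as decorin-high cells within each library, a log2 ratio of shares of 2.15 in the antibody library and 2.53 in the control library. The gates count raw UMIs, so the keratin minimum can favour deep cells and the fibroblast cap of decorin-high cells can remove them. The part of these rules in both ratios was not tested. Cells between the decorin cuts lay between both gates, at 28.3% in the antibody and 30.3% in the control library, and decorin-low cells without a keratin UMI, at 36.7% and 36.2%, were close to the tumour gate.

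Of the immune gates, CD8 T cells had the highest G2/M shares. Among macrophages 13.3% (10.6 to 16.5%) of antibody cells and 17.6% (14.1 to 21.5%) of control cells were called G2/M. Among CD8 T cells the call took 125 of 490 antibody cells (25.5%) and 22 of 79 control cells (27.8%). Among NK cells it took 8 of 155 antibody cells (5.16%, 2.25 to 9.92%) and 8 of 54 control cells (14.8%, 6.62 to 27.1%). The intervals of both libraries overlapped in each of the 5 gates.

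S shares were lower in the antibody than in the control library in each of the 5 gates, in CD8 T cells only slightly. Their counting intervals narrow with cell number, so overlap cannot rank the gates. The intervals of the libraries overlapped in every gate but the tumour gate, also in NK cells with only 155 antibody and 54 control cells. In the tumour gate 96 of 811 antibody cells (11.8%, 9.69 to 14.3%) were called S, against 284 of 1455 control cells (19.5%, 17.5 to 21.7%). With a minimum of 5 S UMIs the shares were 2.22% and 6.12%. The same order held in decorin-low cells without keratin, at 14.2% in the antibody and 18.6% in the control library, and between the decorin cuts, at 10.6% and 17.1%. Decorin-high cells were called S in 3.91% of antibody and 5.42% of control cells, macrophages in 7.95% and 11.1%, CD8 T cells in 24.9% and 25.3%, and NK cells in 7.74% and 16.7%. In CD8 T cells the S and G2/M shares were thus about equal in each library, while tumour cells were called G2/M more often than S.

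**Figure D1:**
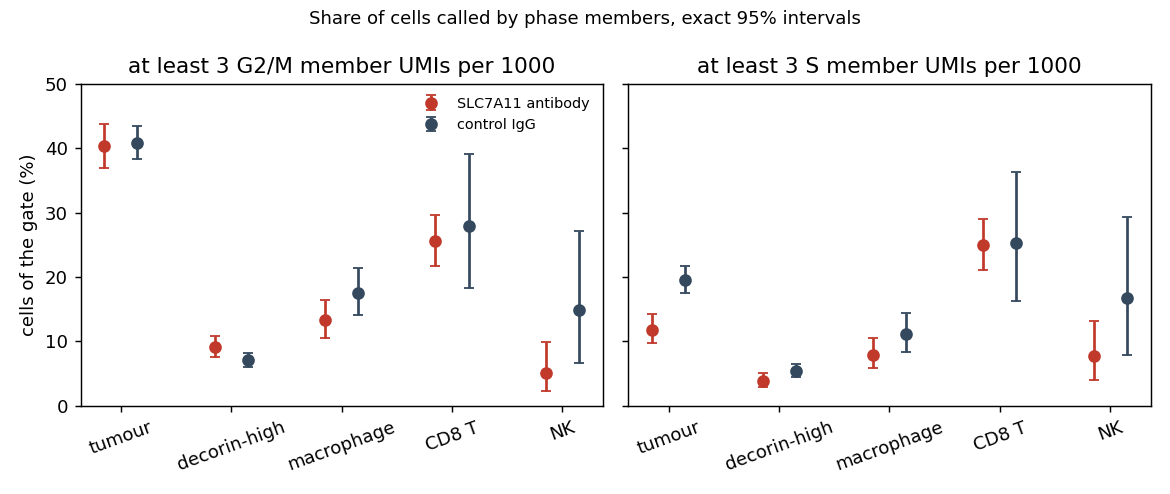
Share of cells of each gate with at least 3 G2/M member UMIs (left) or S member UMIs (right) per 1000 UMIs, in percent, with the SLC7A11 antibody library in red and the control IgG library in dark blue. Points are single libraries and bars exact 95% binomial intervals of counting error alone, which narrow with cell number. The tumour S shares are 11.8% and 19.5%.

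The call depends on depth in the raw cells, and the libraries differed in depth. Tumour cells had a median of 19294 UMIs in the antibody library and 12171 in the control library, CD8 T cells 3025 and 1846. Without thinning, 89.3% of antibody and 86.9% of control tumour cells had at least 3 S UMIs, so the S difference had the opposite sign there. Likewise 53.4% of antibody and 31.8% of control CD8 T cells had at least 3 G2/M UMIs unthinned, and 49.4% and 39.7% of macrophages. These unthinned shares go against the CPM levels given below and carry no order.

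Neutrophils, which do not divide, gave a measure of the background from free RNA and mixed barcodes. Of 82 antibody and 85 control neutrophils, 16 and 11 reached 1000 UMIs, and 3 and 2 of these were called G2/M. These are shares of 18.75% (4.05 to 45.6%) and 18.2% (2.28 to 51.8%), from few cells. In each library they lay above the G2/M shares of decorin-high, macrophage and NK cells. In neutrophil barcodes under 5000 UMIs, G2/M members summed to 1035 CPM in the antibody library and 625 in the control library, and S members to 511 and 359. Over all neutrophil barcodes the order was the opposite for G2/M members, at 1076 CPM in the antibody and 5079 in the control library. For S members it was also the opposite, at 977 CPM in the antibody and 1161 in the control library. In each library this S level lay above the S sums of macrophages and decorin-high cells. In the control library 93.1% of the G2/M UMIs came from 3 barcodes, 1 of which held 329 G2/M UMIs among 18425. The part of this background in the levels and differences of the other gates was not tested.

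Most tumour cells either held almost no G2/M UMIs or held many. After thinning, 35.5% of antibody and 36.8% of control tumour cells had none, the median was 1 in both, and the 90th percentile was 10 in the antibody and 11 in the control library. Cells next to the threshold, with 2 or 3 G2/M UMIs, made up 13.2% and 10.4%. In decorin-high cells 65.5% of the antibody and 68.9% of the control cells had none. At least 8 G2/M UMIs were held by 128 of 811 antibody tumour cells (15.8%, 13.3 to 18.5%) and 304 of 1455 control tumour cells (20.9%, 18.8 to 23.1%), intervals that do not overlap, whereas the shares with at least 3 were 40.3% and 40.8%. In CD8 T cells 42 of 490 antibody cells (8.57%, 6.25 to 11.4%) had at least 8, against 16 of 79 control cells (20.3%, 12.0 to 30.8%).

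**Figure D2:**
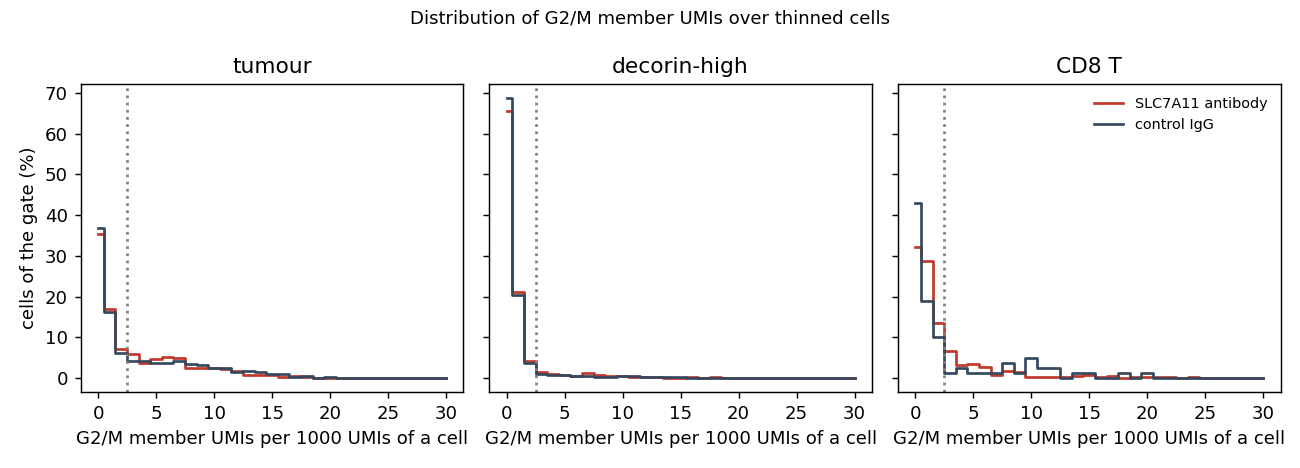
Distribution of G2/M member UMIs among 1000 UMIs of each cell (x axis) as percent of the gate's cells (y axis) in tumour, decorin-high and CD8 T cells, antibody library in red and control library in dark blue. The dotted line marks the threshold of 3; the zero class holds 35.5% and 36.8% of tumour cells and 65.5% and 68.9% of decorin-high cells.

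Cells called G2/M also held more UMIs in all. Tumour cells called G2/M had a median of 24388 UMIs in the antibody and 15284 in the control library, against 17078 and 10353 in cells called neither. Decorin-high cells called G2/M had 14769 and 10382 UMIs, against 6711 and 4850. Barcodes removed as doublets were called G2/M more often than kept ones, at 55.9% and 59.8% in the tumour gate, and whether undetected doublets add to the called cells was not tested. S members were also more abundant in cells called G2/M: in tumour cells they averaged 1.38 UMIs per 1000 in antibody and 1.91 in control cells called G2/M, against 0.748 and 1.08 in the other cells. In CD8 T cells the S average was 2.96 and 3.86 in cells called G2/M, against 1.07 and 1.04 in the rest.

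Summed levels were also high in tumour and CD8 T cells for G2/M members. In CPM, that is UMIs scaled to a fixed total per gate and library, G2/M members summed to 4241 in antibody and 4575 in control tumour cells, 3202 and 4641 in CD8 T cells, 1654 and 1745 in NK cells, 1647 and 1438 in decorin-high cells, and 1382 and 1820 in macrophages. S members had another order, with CD8 T cells first at 1944 in the antibody and 2222 in the control library, then NK cells at 1279 and 1587, tumour cells at 1127 and 1528, and macrophages and decorin-high cells below these. S UMIs per G2/M UMI were fewest in tumour cells, 0.266 and 0.334, and most in NK cells, 0.766 and 0.917. In NK cells, however, 5 barcodes held 57.6% of the G2/M UMIs of the antibody library and 65.2% of those of the control library, and in control CD8 T cells 5 barcodes held 39.6%.

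Within each library, nearly every G2/M member was at least 2-fold higher in tumour than in decorin-high cells. This held for 22 of 23 members in the antibody library and 23 of 23 in the control library, where 3.92% and 4.01% of all genes were that much higher. The median log2 ratio of the G2/M members was 1.29 in the antibody and 1.74 in the control library, beside -0.09 and -0.10 for all genes. Of the 16 S members, 3 in the antibody and 8 in the control library passed 2-fold, with medians of 0.65 and 0.96, and all 16 had ratios above 0. Birc5, the survivin subunit of the chromosomal passenger complex, had 313 CPM in tumour and 105 in decorin-high cells of the antibody library, and 397 and 103 in the control library. Ube2c, the ubiquitin-conjugating enzyme of the anaphase-promoting complex, had 644 and 232 in the antibody library, and 586 and 160 in the control library. Nusap1, a spindle protein, was the exception in the antibody library with a log2 ratio of 0.81, beside 1.48 in the control library. Among S members Pclaf, a PCNA-binding factor, had the highest ratio in each library (1.28 and 1.82) and Slbp, which binds histone mRNA, the lowest (0.09 and 0.45).

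**Figure D3:**
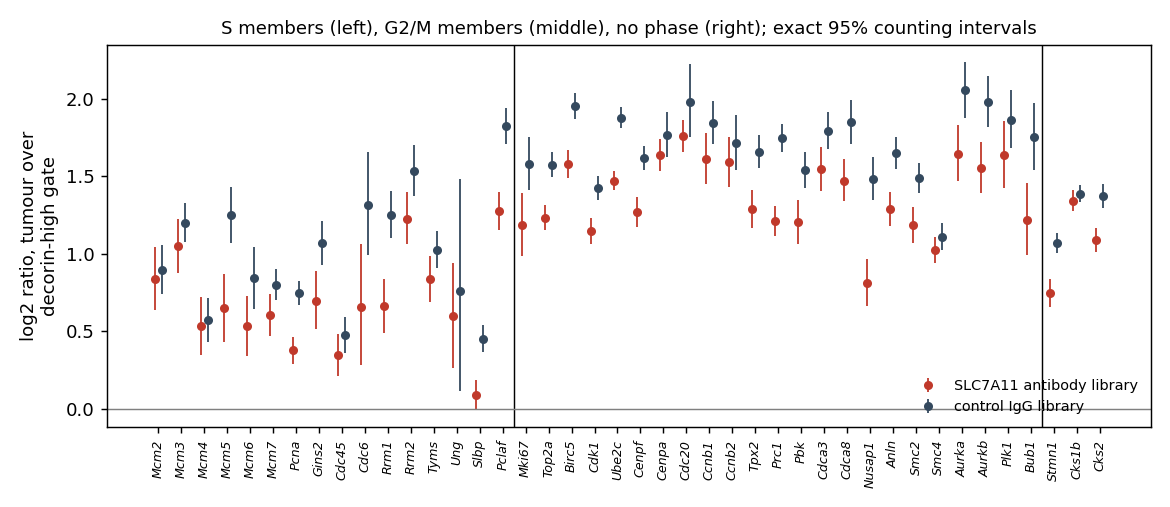
Log2 ratio of each member's level (y axis) in tumour over decorin-high cells, with members along the x axis by phase, the antibody library in red left of the control library in dark blue, and bars for exact 95% counting intervals. G2/M members lie at 0.81 to 1.76 in the antibody and 1.11 to 2.05 in the control library, above most S members.

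Immune gates differed from decorin-high cells in which members were high. In CD8 T cells 12 of 16 S members were at least 2-fold higher than in decorin-high cells in the antibody library and 8 of 16 in the control library, where 18.5% and 20.6% of all genes were. For G2/M members it was 10 of 23 and 19 of 23. In macrophages only 1 and 3 of 23 G2/M members passed, beside 16.3% of all genes in both libraries, and in NK cells 2 and 5 of 23, beside 20.5% and 25.6%. Of the 16 S members, 8 in the antibody and 7 in the control library were at least 2-fold higher in NK cells, with medians of 1.01 and 0.91, and 2 and 4 in macrophages. Mki67, which coats mitotic chromosomes, had the highest ratio of the G2/M members in macrophages (1.50 and 2.30), CD8 T cells (2.54 and 2.90) and NK cells (2.01 and 2.39). Anln, the actin-binding anillin of the cleavage furrow, had log2 ratios of -1.58 and -0.62 in macrophages and -1.33 and -1.64 in CD8 T cells, the last from 4 UMIs. Cdc45, a partner of the replicative helicase, was likewise lower in macrophages (-1.31 and -1.12) although the S members as a list had positive medians there (0.25 and 0.57). The members of a phase therefore did not keep a fixed proportion across gates.

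Between the libraries, S members were lower with antibody in tumour cells as a group, while the G2/M sum differed less. Their sum had a log2 ratio, antibody over control, of -0.44 (-0.46 to -0.41) for S and -0.11 (-0.12 to -0.10) for G2/M members. A gene's ratio was read when it had at least 20 UMIs over both libraries, which all 39 phase members had in tumour cells, and 14 of 16 S and 17 of 23 G2/M members lay below 0. The medians were -0.54 for S and -0.34 for G2/M members beside -0.18 for all 13851 genes read. Below that all-gene median lay 13 of 16 S and 14 of 23 G2/M members. At least 2-fold higher were 1 S and 2 G2/M members, where 10.2% of all genes were, and none was 2-fold lower, where 3.91% of all genes were. Scaling by the median of gene ratios in place of total UMIs adds 0.13 to 0.19 to each log2 ratio, depending on the gate, and turns the G2/M sum of tumour cells to 0.03 while S stays at -0.30.

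The MCM helicase, a ring of 6 different subunits, was uneven. In tumour cells Mcm3 had 63.3 CPM with antibody and 108 with control IgG (log2 ratio -0.77), Mcm5 32.4 and 58.0 (-0.84), and Mcm7 84.3 and 147 (-0.80). Mcm2 and Mcm4 had ratios of -0.53 and -0.55. Mcm6 had 41.3 and 38.0 CPM, a ratio of 0.12 whose interval (-0.03 to 0.27) spans 0. In decorin-high cells the 5 other subunits lay between -0.62 and -0.24 and Mcm6 at 0.43, and in CD8 T cells Mcm6 had 112 and 39.6 CPM, from 201 and 8 UMIs (1.42, 0.49 to 2.73). One subunit thus stood above the others in these 3 gates.

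Other replication factors were lower or near the median of all genes. Gins2, part of the helicase with Cdc45, had 46.4 CPM in antibody and 83.4 in control tumour cells (-0.84), and Cdc6, which loads the MCM ring, 10.9 and 17.9 (-0.71). Pcna, the sliding clamp, had 185 and 226 (-0.29), and was seen in 82.4% of antibody and 73.1% of control tumour cells. Pclaf stood at -0.41, Cdc45 at -0.30 and Slbp at -0.24. Of the enzymes that supply nucleotides, Tyms, which makes thymidylate, had 80.4 and 118 (-0.56), Rrm1, the large subunit of ribonucleotide reductase, 53.7 and 79.9 (-0.57), and Rrm2, its small subunit, 76.4 and 78.8 (-0.05). Tyms was lowest of the S members in macrophages, at 32.7 and 86.1 CPM (-1.40, -1.72 to -1.07).

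Ung, the glycosylase that removes uracil from DNA, had ratios above 0. It had 13.9 CPM in antibody and 3.38 in control tumour cells, from 243 and 68 UMIs (2.03, 1.65 to 2.45), 9.18 and 1.97 in decorin-high cells (2.20), and 12.0 and 3.68 in macrophages (1.63). In CD8 T cells it had 53 UMIs in the antibody library and none in the control library, which against a floor of 3 UMIs over the gate is at least 1.99-fold higher; the S median of this gate, -0.24, is unchanged with Ung at that bound. Its ratio was above 0 in the 4 gates where it was read.

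Chromosome structure genes were mixed. In tumour cells Top2a, the topoisomerase that untangles sister DNA, had 322 CPM with antibody and 357 with control IgG (-0.15), and Smc2 and Smc4, which pair in condensin, had ratios of -0.57 and 0.25. Mki67 had 51.8 and 74.4 (-0.52), and Cenpf, a kinetochore protein, 237 and 390 (-0.72). Cenpa, the histone H3 variant of centromeres, had 246 and 117 (1.07, 1.00 to 1.14). Cenpa was higher in every gate, with 79.2 and 34.5 CPM in decorin-high cells (1.20), 88.6 and 51.1 in macrophages (0.79), 397 and 173 in CD8 T cells (1.18), and 178 and 47.4 in NK cells (1.81).

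Cyclins and the genes that drive anaphase also split. Cdk1, the mitotic kinase, had 283 CPM in antibody and 340 in control tumour cells (-0.26). Its partner Ccnb1 stood at -0.41, with 99.5 and 132, but Ccnb2 at 0.38, with 99.0 and 76.2. Ccnb2 was also higher in decorin-high cells (0.50) and macrophages (0.79), and stood at -0.04 in CD8 T cells with an interval of -0.67 to 0.71. Cdc20, the activator of the anaphase-promoting complex, had the largest ratio of the G2/M members, with 259 and 51.4 CPM in tumour cells (2.33, 2.24 to 2.43). Cdc20 had 76.5 and 13.0 in decorin-high cells (2.55), 50.3 and 11.0 in macrophages (2.16), 124 and 29.7 in CD8 T cells (1.95), and 50.6 and 23.7 in NK cells from 19 and 3 UMIs (0.91, -0.67 to 3.50). Ube2c, which works with it, had a tumour ratio of only 0.14, and this turned to -0.06 with a stricter tumour gate.

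Mitotic kinases and spindle genes were mostly below the median of all genes in tumour cells. Tpx2, which activates Aurka on the spindle, had 142 CPM with antibody and 208 with control IgG (-0.55). Prc1, which bundles microtubules of the midzone, stood at -0.44, Pbk, a mitotic kinase, at -0.55, and Nusap1 at -0.57. Plk1, the polo-like kinase, had 56.9 and 74.5 (-0.39), and Bub1, a checkpoint kinase, 40.6 and 51.7 (-0.35). Aurka (-0.10) and Aurkb (-0.12), the Aurora kinases, and Cdca8 (0.01), the borealin subunit of the passenger complex, were near 0. Birc5 stood at -0.34, Cdca3 at -0.40 and Anln at -0.21. The G2/M sum is thus made of a broad set of lower ratios and a few high ones, among them Cdc20 and Cenpa.

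Decorin-high cells had a slightly lower S sum and a higher G2/M sum with antibody by total UMIs, after removal of doublets. Their S sum had a log2 ratio of -0.11 (-0.16 to -0.07), which turns to 0.03 with the median of ratios, and their G2/M sum one of 0.20 (0.17 to 0.23), which is 0.00 without removal of doublets. That removal took 35 antibody and 266 control cells of this gate, of which 48.6% and 31.6% were called G2/M. Among kept cells the shares were 9.07% and 7.06%. Above 0 were 7 of 16 S and 15 of 23 G2/M members, with medians of -0.11 (0.03 by the median of ratios) and 0.10 beside -0.18 for all genes. By total UMIs, 7 of 16 S and 4 of 23 G2/M members lay below that all-gene median. At least 2-fold higher were again Ung, Cdc20 and Cenpa, where 9.68% of all genes were, and no member was 2-fold lower, where 4.76% of all genes were. Ube2c stood at 0.54, with 232 and 160 CPM.

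Macrophages had lower sums of both phases with antibody. The S sum had a ratio of -0.54 (-0.62 to -0.47) and the G2/M sum one of -0.40 (-0.46 to -0.34), with medians of -0.51 and -0.57 beside -0.18 for all genes. Below 0 were 13 of 16 S and 19 of 23 G2/M members, and below that all-gene median 13 of 16 and 18 of 23. Pbk had 16.5 CPM in antibody and 47.9 in control macrophages (-1.54, -2.00 to -1.09), and Nusap1 32.4 and 63.5 (-0.97). Mki67 had 64.2 and 122 (-0.93). At least 2-fold lower were Tyms and Pbk, where 5.53% of all genes were, and 2-fold higher were Ung and Cdc20, where 8.42% were.

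CD8 T cells differed in G2/M more than in S members. The G2/M sum had a ratio of -0.54 (-0.64 to -0.43) and the S sum one of -0.19 (-0.33 to -0.05), which is -0.0046 with the median of ratios. At least 2-fold lower were 8 of 23 G2/M members, where 8.0% of all genes were; under the median of ratios 6 were, where 4.77% of all genes were. Plk1 had 41.2 CPM in antibody and 124 in control CD8 T cells, from 74 and 25 UMIs (-1.60, -2.26 to -0.87). Nusap1 had 96.3 and 282 (-1.56), Cdca3, which promotes entry into mitosis, 79.1 and 198 (-1.34), Cenpf 112 and 262 (-1.24), and Birc5 217 and 490 (-1.18). The remaining 3 were Pbk (-1.35), Aurka (-1.25) and Prc1 (-1.09). At least 2-fold higher were Cdc20 and Cenpa of the G2/M members and Mcm6 of the S members, where 12.7% of all genes were. Ung, with no control UMI, has only the floor value and the interval given above. These control values rest on 85 cells, and 5 of those barcodes carried 39.6% of the G2/M UMIs.

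NK cells had few UMIs, and 13 of 16 S and 17 of 23 G2/M members could be read. The S sum had a ratio of -0.31 (-0.55 to -0.07) and the G2/M sum one of -0.08 (-0.30 to 0.15), an interval that spans 0. Mcm3 had 37 UMIs in the antibody and 28 in the control library, 98.6 and 221 CPM (-1.17, -1.91 to -0.40). Without a limit on decorin UMIs per cell the G2/M ratio of this gate was 0.65, and with a stricter gate 0.21, so its sign depends on the gate. Scaling by the median of gene ratios adds 0.13 in NK cells and also takes this ratio above 0. Neutrophil markers summed to 2.66 CPM in the antibody NK gate and 553 in the control NK gate, and their part in these values was not tested. At least 2-fold lower were 3 S and 1 G2/M members, where 6.49% of all genes were, and 2-fold higher 1 of each, where 11.8% were. By the median of ratios 1 of each was lower, where 4.12% of all genes were. Higher were then 1 S and 3 G2/M members, where 13.9% of all genes were.

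Stmn1, which destabilises microtubules and belongs to no phase here, was lower with antibody in all 5 gates. It had 199 CPM in antibody and 406 in control tumour cells (-1.03, -1.09 to -0.97), 118 and 193 in decorin-high cells (-0.71), 129 and 253 in macrophages (-0.97), 315 and 757 in CD8 T cells (-1.27), and 264 and 450 in NK cells (-0.78). The Cdk-binding proteins Cks1b and Cks2 had tumour ratios of -0.38 and -0.05. Named copies of Stmn1, Cks1b, Pcna, Tyms, Ccnb1 and Ccnb2 exist in the mouse annotation, and how reads that match both were counted is not given in the sources used here.

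Across the gates where they could be read, 13 members had ratios below 0 in every one, and 4 members, Cdc20, Cenpa, Mcm6 and Ung, had ratios above 0 in every one. Those below 0 were Mcm3, Mcm5, Mcm7, Gins2 and Tyms of the S members, Mki67, Cenpf, Ccnb1, Tpx2, Pbk, Smc2 and Plk1 of the G2/M members, and Stmn1. Under the median of ratios 9 remained below 0 in every gate, without Mcm3, Mcm7, Mki67 and Smc2, and 6 lay above 0, with Ccnb2 and Smc4 added. Of the 33 members past the minimum of 20 counts in all 5 gates, 9 (27.3%) lay below 0 in each and 3 (9.09%) above 0 in each, beside 26.7% and 16.6% of the 3801 genes past it. By the median of ratios these were 5 (15.2%) and 4 (12.1%), beside 14.4% and 21.7%, so the members' shares below 0 were near those of all genes. The gates share 1 pair of libraries, so a ratio that recurs across gates is a property of this pair, and a difference between the libraries as a whole cannot be told apart from one between treatments.

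**Figure D4:**
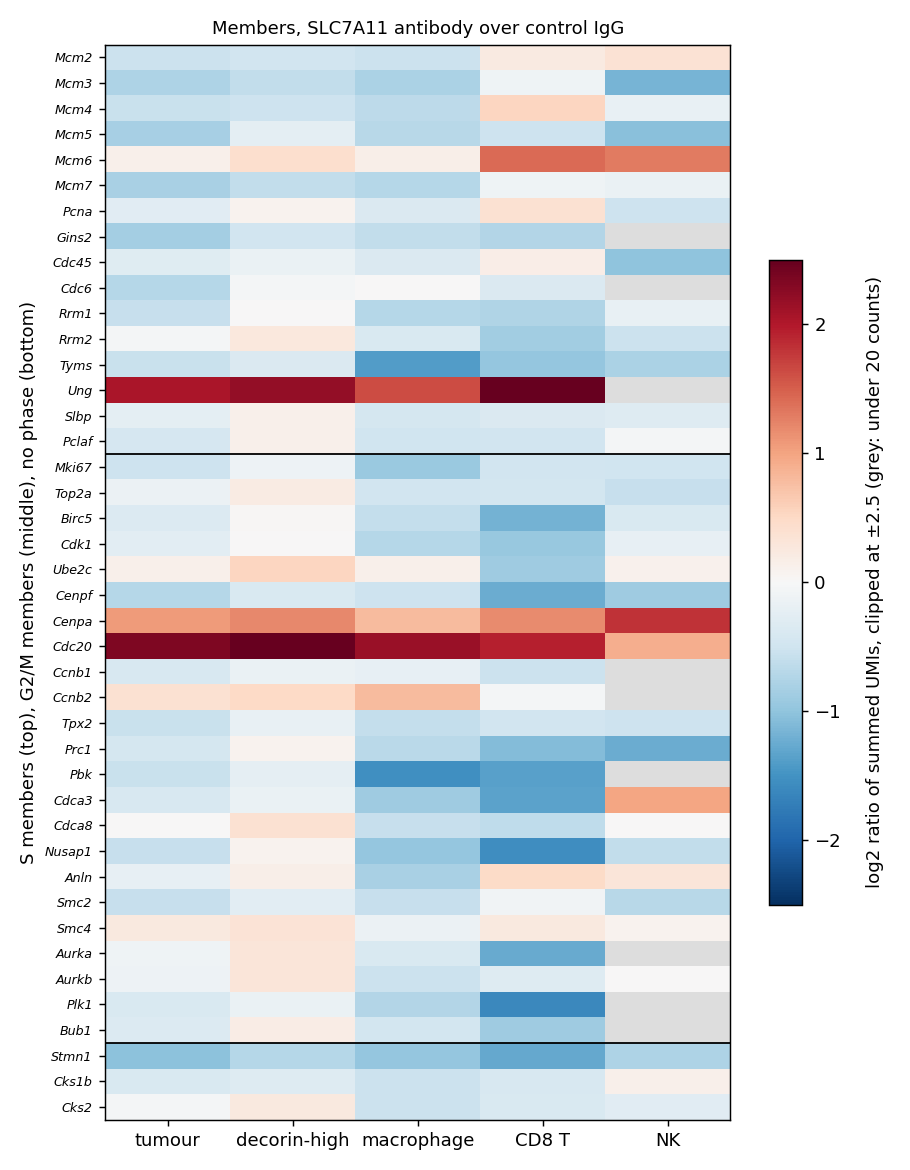
Log2 ratio of summed UMIs, SLC7A11 antibody over control IgG, for each member (rows, by phase) in each gate (columns), with red for higher and blue for lower in the antibody library. Grey cells had under 20 UMIs, and Ung in CD8 T cells is drawn at the end of the scale because its control count was 0; the rows of Ung, Cenpa and Cdc20 are red across the gates read and that of Stmn1 is blue.

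Other genes of the cycle were read in tumour cells on 3 lists. Of 40 other replication genes 34 had ratios below 0, with a median of -0.51 beside -0.18 for all genes, and 30 lay below that all-gene median. At least 2-fold higher were 3, where 10.2% of all genes were, and 1 was 2-fold lower, where 3.91% were. Dut, which breaks down dUTP, had 229 CPM with antibody and 22.5 with control IgG (3.34, 3.20 to 3.49), Rfc5, a subunit of the clamp loader, 44.4 and 12.7 (1.80), and Gins4 35.4 and 12.7 (1.47). Rfc2, another clamp loader subunit, had 61.5 and 127 (-1.04), and Chaf1b, a histone chaperone subunit, and Exo1, an exonuclease, stood at -0.99 and -0.87. Subunits of 1 complex, the clamp loader, thus lay on both sides of 0. In the MCM ring only Mcm6 had a tumour ratio above 0, with an interval that spans 0.

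Of 46 other mitosis genes 38 had ratios below 0 in tumour cells, with a median of -0.36 beside -0.18 for all genes, and 31 lay below that all-gene median. At least 2-fold higher were 2, where 10.2% of all genes were, and none was 2-fold lower, where 3.91% were. Plk4, the kinase of centriole duplication, had 61.7 CPM with antibody and 25.1 with control IgG (1.30), Nek2, a centrosome kinase, 16.6 and 7.52 (1.14), and Ccna2, cyclin A, 90.5 and 46.9 (0.95). Psrc1 (-0.79), Ndc80 of the kinetochore (-0.73) and the checkpoint gene Bub1b (-0.73) were the lowest 3. The 24 genes of G1 control, of which 21 could be read, had a median of -0.0043, with 5 of 21 below the median of all genes. Cyclin D3, Ccnd3, had 63.5 and 33.9 (0.90), Ccng2 stood at 0.72 and Mdm2, the p53 ubiquitin ligase, at 0.57, while Ccng1 (-0.65), Skp2 (-0.60) and Rb1 (-0.49) were lowest. In CD8 T cells 10 of 44 other mitosis genes read were at least 2-fold lower, where 8.0% of all genes were, and 2 were 2-fold higher, where 12.7% were.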

How the data were processed

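Single-cell RNA of 2 libraries of dissociated tumour, 1 per group, was deposited by the authors as tables of raw UMI counts per gene and barcode. Cell Ranger 7.2.0, build mm10 and Seurat are named in the submitters' processing notes; other settings are not given in the sources used here. The members, the other gene lists and the tests were chosen with earlier results of these data known, and gate minimums were set after the marker counts had been seen. All 42 members may be named. Set to be named were, per gate, the 4 highest and 4 lowest ratios among members with at least 20 counts. The member of most counts per role in tumour cells was added. From each other list came the 3 highest and 3 lowest tumour ratios among genes with at least 100 counts. Not all of these are given with both values, and some of the NK and decorin-high gates are left out. Remaining members named were chosen after their values were seen.

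The filter on cells asked for 500 UMIs, 200 genes and a mitochondrial share below 20%, and 12061 of 12153 antibody and 13863 of 13910 control barcodes passed. Doublets were scored with Scrublet (scanpy 1.11.5) and the top 0.8% per 1000 cells were removed, 1164 (9.65%) and 1537 (11.1%). Gates used marker UMIs; immune gates also required under 10 decorin UMIs, added after a few deep barcodes were seen to set the NK sum. Counts were summed per gate and library and given as CPM, that is per 1000000 UMIs of the gate; log2 ratios used a prior count of 0.5, and a gene absent from a table counted 0. For calls, cells were thinned to 1000 UMIs with fixed seeds; shallower cells, 28 antibody and 7 control cells of the NK gate, 16 and 6 of CD8 T, 0 and 3 of macrophages, were left out. Intervals are Clopper-Pearson for shares and exact conditional binomial for ratios; UMIs of 1 cell are not independent, so true error is larger. The functions were tested on simulated data. Free RNA was not subtracted. The scripts ran in matplotlib 3.10.9, pandas 2.3.3, scipy 1.17.1 and numpy 2.4.6 under Python 3.11.15.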

Additional observations from a re-analysis of the deposited data

Results flagged for a closer look

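Aurka, the Aurora A kinase of the spindle, stood on opposite sides of 0 in 2 gates. Its log2 ratio, antibody over control, was 0.31 in decorin-high cells, with 27.0 CPM in the antibody and 21.8 in the control library, and -1.25 in CD8 T cells, with 34.0 and 79.2 from 61 and 16 UMIs. Each counting interval left out 0, but these intervals cover counting error alone. The control CD8 T gate had 85 cells, and 5 of its barcodes held 39.6% of the G2/M UMIs. In decorin-high cells the G2/M sum was 0.0033 with doublets kept. The difference between the gates was not tested, since each gate has 1 library per group.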

How the results depend on the processing

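All values are log2 ratios, antibody over control unless a gate ratio is named, and the cause of each shift was not tested. Median-of-ratios scaling reversed the tumour G2/M sum (0.028) and the decorin-high S sum (0.027). It also took the NK G2/M sum, whose interval spans 0, from below to above 0. It gave -0.30 for the tumour S sum, 0.34 for the decorin-high G2/M sum, -0.35 and -0.20 for S and G2/M in macrophages, and -0.0046 and -0.35 in CD8 T cells. Tumour over decorin-high was then 0.76 for S and 1.50 for G2/M in the antibody library, and 1.10 and 1.82 in the control library. It also raised the share of 2-fold higher genes among all 2-fold calls to 81.9, 77.2, 77.8, 77.4 and 77.2% in tumour, decorin-high, macrophage, CD8 T and NK cells, against 72.4, 67.0, 60.4, 61.3 and 64.6%.

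Without thinning the share called S reversed in tumour cells (0.039) and was 0.43 in decorin-high cells and 0.33 in macrophages, while the share called G2/M was 0.31 in macrophages and 0.75 in CD8 T cells. Tumour over decorin-high shares were then 0.79 for S and 0.89 for G2/M in the antibody library, and 1.18 and 1.44 in the control library. Thinned to 2000 UMIs, with at least 6, S shares were -1.08 in tumour cells and -1.19 in macrophages, the CD8 T G2/M share was -0.83, and the control S share of tumour over decorin-high was 2.22. At a minimum of 5 UMIs the S shares were -1.46 in tumour, -1.57 in macrophage and -0.79 in CD8 T cells, and 1.02 for tumour over decorin-high in the antibody library. At a minimum of 2, the tumour over decorin-high G2/M share was 1.83 in the antibody and 2.13 in the control library.

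Keeping doublets gave -0.27 for S and 0.0033 for G2/M in decorin-high cells, -0.53 for macrophage G2/M and -0.62 for NK S. Tumour over decorin-high sums were then 1.25 for G2/M in the antibody library, and 0.79 for S and 1.36 for G2/M in the control library, whose G2/M share was 2.14. Stricter gates gave -0.47 for S and -0.26 for G2/M in tumour cells, 0.12 for decorin-high G2/M and 0.21 for NK G2/M. Tumour over decorin-high was then 0.55 for S and 1.28 for G2/M in the antibody library and 0.87 for S in the control library, with an S share of 1.53. Among single members a stricter gate reversed Ube2c in tumour cells (-0.063) and Prc1 in NK cells (0.81).

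Totals without mitochondrial, ribosomal and haemoglobin genes gave -0.47 and -0.14 for S and G2/M in tumour cells, -0.16 and 0.15 in decorin-high cells, and tumour over decorin-high of 0.68 and 1.41 in the antibody and 0.98 and 1.70 in the control library. Leaving out the member of most counts gave -0.47 and -0.15 in tumour and -0.16 and 0.15 in decorin-high cells. Means over scaled cells gave -0.48 and -0.13 in tumour cells, and -0.43 and -0.45 for G2/M in CD8 T and NK cells. With keratin not required (added after seeing the data), tumour S and G2/M were -0.31 and -0.072, and tumour over decorin-high 0.77 and 1.26 in the antibody library and 1.53 for G2/M in the control library. With no decorin limit, also added later, G2/M was -0.77 in CD8 T and 0.65 in NK cells. The tumour S sum stayed below 0 under every alternative, at -0.48 to -0.30. No paired analysis was possible because each group has 1 library. Cell number limits the values of the NK gate, with 183 antibody and 61 control cells, and of the control CD8 T gate, with 85.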
